A study of Mus musculus with 15 samples.

Results

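The genes described here are the core of the control of the G1 phase of the cell cycle: the D cyclins Ccnd1, Ccnd2 and Ccnd3, their catalytic partners Cdk4 and Cdk6, and the CDK inhibitors Cdkn1a, Cdkn1b, Cdkn1c, Cdkn2a and Cdkn2c. They were chosen by name from the rows of a table of 48709 genes, and all 10 passed the filter on low counts that left 16554 genes for testing. The samples were pancreatic islets of 15 untreated female NOD mice (NOD/ShiLtJ, a strain in which immune cells enter the islets before diabetes develops on its own), 3 at each of 5 ages: 4, 6, 8, 10 and 12 weeks. Each sample came from a single mouse, there was no other strain, and the 4-week mice served as the reference. The islets were isolated with collagenase and a density gradient and then picked by hand, so that each sample held endocrine cells together with any leukocytes, stroma, acinar or other cells still attached.

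The passage through G1 is set by a balance. D cyclins bind CDK4 or CDK6 and the active kinase phosphorylates the retinoblastoma protein, which releases E2F transcription factors to switch on genes for DNA synthesis. Inhibitors of the INK4 family (p16, p18) bind CDK4 and CDK6 directly, and those of the CIP/KIP family (p21, p27, p57) bind cyclin and CDK together. In mouse beta cells, cyclin D2 and CDK4 are known to be required for growth of the beta-cell mass after birth, while p16 accumulates with age.

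Totals of 25407492 to 41616275 counts were deposited per sample, and 3 counts, taken as the floor, corresponded to between 0.0721 and 0.118 CPM. The 12 endocrine genes and the 10 beta-cell markers fixed for checking the tissue were present in every sample. Between 4 and 12 weeks all 22 leukocyte markers rose, with a median log2 difference of 4.75, all 8 mesenchymal markers rose (median 1.94), and 11 of 12 endocrine genes fell (median of the 12, -0.88). The summed level of the leukocyte markers ran from 91.5 to 315 CPM at 4 weeks and from 2267 to 2664 CPM at 12 weeks, with no marker at 0 in all mice of an age. The 12-week replicate 1 and the 6-week replicate 2 also carried more RNA of intestinal marker genes, with a mean of the 8 markers of 4.04 and 1.65 log2 CPM against -1.45 to -0.52 in the other 13 mice. The markers summed to 254 and 106.5 CPM in these 2 mice and to 40.5 to 84.3 CPM in the others. Of the 3 intestinal markers tested, 2 rose at 12 against 4 weeks. Their part in the values of the members was not tested either. Acinar RNA varied widely within ages: the 8 acinar markers summed to 1192 to 10040 CPM at 4 weeks and 1793 to 13940 CPM at 10 weeks. The highest sum was that of 10-week replicate 1. None of these 8 passed at 12 against 4 weeks, and their part in the values of the members was not tested. In such bulk samples, fewer cells of a type and less RNA per cell cannot be told apart.

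Promoter windows from RefSeq (build GRCm38.p6, 250 bases before and 50 after a start site) were matched for 7 of the 10 genes, in 11 windows, and those of Cdkn2a and Cdk4 are printed here because of how their rows are read below. The Cdkn2a row sums 2 different products, since its upstream start gives the Arf transcript (p19Arf, which acts on p53) and its downstream start gives the p16Ink4a transcript, and the counts do not separate them. Cdk4 held 4 copies of the E-box word that Myc binds, a number found in few promoters. Words were searched on both strands: the E-box CACGTG, which is its own reverse complement, and the E2F words TTTCCCGC, TTTCGCGC, TTTGCCGC and TTTGGCGC, and capitals mark the letters that matched.
Cdkn2a, upstream start, chr4:89294570-89294869, minus strand: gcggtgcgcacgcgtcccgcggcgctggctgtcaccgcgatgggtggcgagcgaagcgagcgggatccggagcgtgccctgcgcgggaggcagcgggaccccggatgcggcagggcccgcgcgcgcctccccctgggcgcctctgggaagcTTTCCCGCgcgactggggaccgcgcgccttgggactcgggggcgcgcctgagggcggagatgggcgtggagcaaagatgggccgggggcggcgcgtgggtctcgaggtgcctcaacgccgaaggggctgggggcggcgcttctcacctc
Cdkn2a, downstream start, chr4:89282143-89282442, minus strand: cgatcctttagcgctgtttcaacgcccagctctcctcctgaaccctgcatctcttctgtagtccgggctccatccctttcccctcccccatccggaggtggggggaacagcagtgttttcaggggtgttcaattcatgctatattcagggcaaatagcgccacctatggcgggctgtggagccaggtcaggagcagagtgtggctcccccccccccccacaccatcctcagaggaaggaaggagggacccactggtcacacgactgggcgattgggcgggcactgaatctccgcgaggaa
Cdk4, chr10:127063285-127063584, plus strand: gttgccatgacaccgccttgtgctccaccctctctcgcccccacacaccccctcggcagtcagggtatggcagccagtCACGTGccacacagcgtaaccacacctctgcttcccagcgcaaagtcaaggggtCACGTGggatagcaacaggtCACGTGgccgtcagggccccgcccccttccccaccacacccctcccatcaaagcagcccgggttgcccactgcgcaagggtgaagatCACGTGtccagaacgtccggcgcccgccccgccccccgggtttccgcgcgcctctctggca

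Of all 32851 promoter windows, 7.15% held at least 1 E-box and 8 windows (0.0244%) held 4 or more, among them that of Cdk4. The E2F words were present in 2.26% of the windows, and in the Cdkn2a windows they were present in that of the upstream start and not in that of the downstream start. The window of Cdk6 and 1 of the 2 windows of Cdkn2c held 1 E-box each, and the windows of Ccnd3, Cdkn1a and Cdkn1b held none of these words. A match is a description of the letters in the window and not a measured binding site.

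Set per gene length (TPM), which allows genes to be compared, Ccnd2 had the highest level of the 10 at every age. At 4 weeks it stood at a mean of 331 TPM, followed by Cdk4 at 73.2, Cdkn1b at 64.0, Ccnd1 at 46.6, Cdkn1a at 25.6, Cdkn2c at 19.1, Ccnd3 at 12.5, Cdkn1c at 4.09, Cdk6 at 1.06 and Cdkn2a at 1.05 TPM. The ranges of neighbours in this order did not overlap at 4 weeks, except those of Cdk6 and Cdkn2a. At 12 weeks the order was Ccnd2 at 288 TPM, Cdk4 at 83.7, Ccnd1 at 73.6, Cdkn1b at 71.8, Cdkn1a at 36.4, Ccnd3 at 34.5, Cdkn2c at 15.3, Cdkn1c at 6.31, Cdk6 at 2.84 and Cdkn2a at 2.22 TPM. Cdkn2c and Ccnd3 had thus changed places, and the ranges of Cdk4 and Ccnd1, Ccnd1 and Cdkn1b, Cdkn1a and Ccnd3, and Cdk6 and Cdkn2a overlapped. TPM values carry no correction for the composition of a sample, so differences between ages are given below on the TMM-scaled CPM scale.

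**Figure D1:**
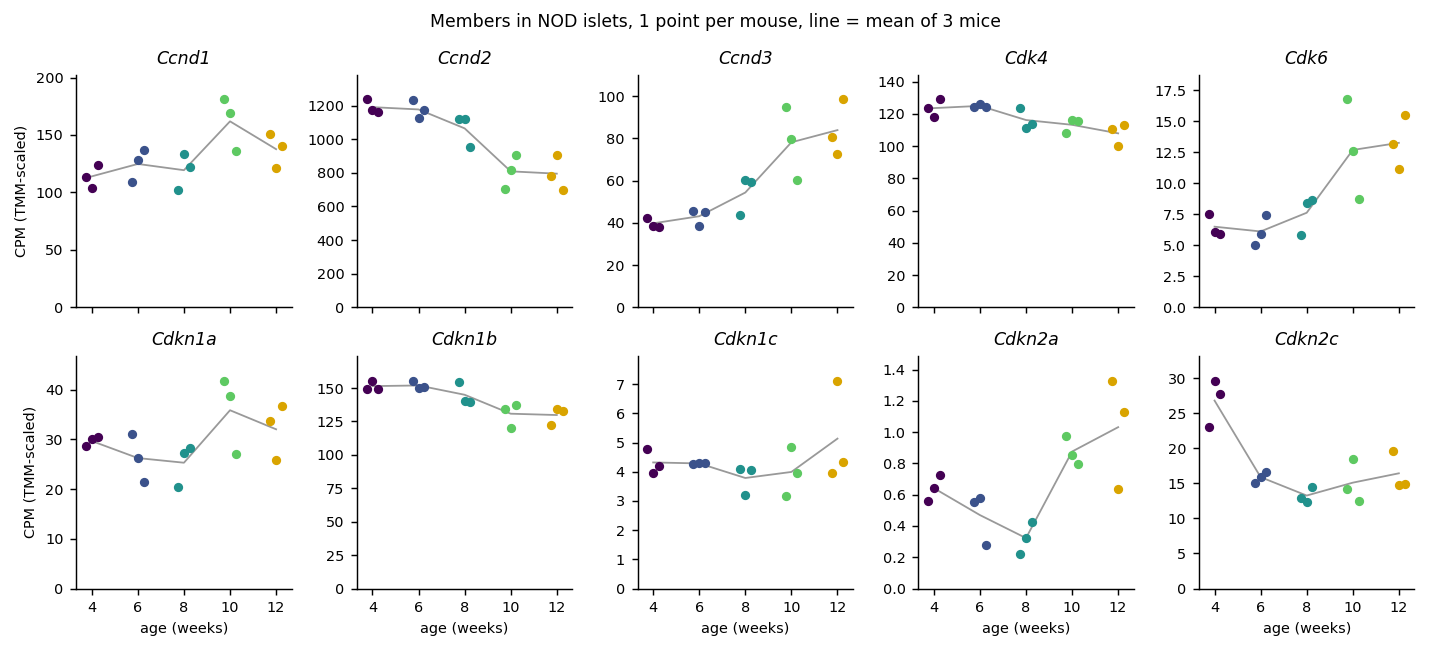
TMM-scaled CPM (vertical axis, from 0) of the 10 genes in each of the 15 mice by age in weeks (horizontal axis), with a line through the means of 3 mice. Ccnd2 lies between 1160 and 1237 CPM at 4 weeks and between 699 and 909 CPM at 12 weeks, whereas Ccnd3 and Cdk6 lie higher at 12 weeks than at 4 weeks in every mouse.

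Over the 5 ages, 8 of the 10 genes differed in at least 1 age (edgeR, joint quasi-likelihood test, Benjamini-Hochberg adjusted p under 0.05), where 56.0% of all genes tested did. The 2 genes that did not pass were Cdkn1a (edgeR adjusted p = 0.141) and Cdkn1c (edgeR adjusted p = 0.434). Between the age extremes, 12 against 4 weeks, 2 genes rose (Ccnd3 and Cdk6) and 4 fell (Ccnd2, Cdk4, Cdkn1b and Cdkn2c), while over all genes 26.3% rose and 27.2% fell, 53.5% in all. In the same 6 genes the 3 mice of 12 weeks did not overlap with the 3 of 4 weeks, a separation seen in 64.2% of all genes tested. The number of members called at 12 against 4 weeks was therefore close to the background, and what follows concerns which of them differed, when and by how much. With the mean of the leukocyte markers as a covariate, 0 of the 10 passed in the joint test and 0 at 12 against 4 weeks, and of all 16554 genes 78 and 2 passed, from 9262 and 8858 without it. Age and that mean move together in these mice and cannot be told apart in such a fit.

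Ccnd2 (chr6:127125162-127152193, minus strand, GRCm38), the D cyclin with the highest level in these islets, was measured at 1237, 1177 and 1160 CPM in the 4-week mice. The values were 1234, 1127 and 1172 CPM at 6 weeks and 1122, 1119 and 954 CPM at 8 weeks. They were 706, 816 and 906 CPM at 10 weeks and 779, 909 and 699 CPM at 12 weeks. On this scale every mouse of 10 and 12 weeks thus lay below every mouse of 4, 6 and 8 weeks. In TPM the ages overlapped, with 12-week replicate 2 at 320.7 and 4-week replicate 2 at 315.7. The share of all genes with such a separation is not given here. Ccnd2 fell by 0.58 on the log2 scale between 4 and 12 weeks (SE 0.11, edgeR adjusted p = 0.00117), to 0.668 of its 4-week level. The interval in which it passed the test was 10 against 8 weeks, with a log2 difference of -0.40 (edgeR adjusted p = 0.0361), and no interval before or after did. That call was lost with the 2 ages fitted alone (edgeR adjusted p = 0.171) and with library totals in place of TMM (edgeR adjusted p = 0.0679). It was also lost with the replicate number as a block and with the leukocyte covariate. With a single mouse left out, the call was kept only without 10-week replicate 3 and without 8-week replicate 3.

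Ccnd3 (chr17:47505051-47599691, plus strand), the D cyclin that lymphocytes are known to depend on during their development, was at 42.5, 38.6 and 38.2 CPM at 4 weeks. It was at 45.8, 38.4 and 45.2 CPM at 6 weeks and at 43.5, 60.3 and 59.3 CPM at 8 weeks. It reached 94.7, 79.6 and 60.2 CPM at 10 weeks and 80.8, 72.5 and 98.4 CPM at 12 weeks. The lowest mouse of 8 weeks and the lowest of 10 weeks were those with the fewest leukocyte transcripts of their age, whereas at 6 weeks that mouse (replicate 1) had the highest value. Ccnd3 rose by 1.08 on the log2 scale between 4 and 12 weeks (SE 0.17, edgeR adjusted p = 0.000439), or 2.11-fold, the largest increase among the 10 genes in this fit. At 10 against 8 weeks the log2 difference was 0.52 (edgeR adjusted p = 0.0493). It did not pass with the 2 ages fitted alone (edgeR adjusted p = 0.177), the replicate number as a block, no filter on low counts or the leukocyte covariate. With a single mouse left out, it passed only without 10-week replicate 3.

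Ccnd1 (chr7:144929931-144939925, minus strand), the D cyclin most often tied to growth factor signalling, was at 114, 104 and 124 CPM at 4 weeks and at 151, 121 and 141 CPM at 12 weeks, and these ranges overlapped. The difference of 0.27 on the log2 scale did not pass (SE 0.13, edgeR adjusted p = 0.0997). It did pass in 3 other fits, with library totals in place of TMM (0.52), with DESeq2 (0.33) and with the 2 ages fitted alone (0.32). It did not pass in the remaining fits, and with the leukocyte covariate its sign turned to -0.17 (edgeR adjusted p = 0.873). The highest values were at 10 weeks, with 181, 169 and 136 CPM against 102, 134 and 122 CPM at 8 weeks. There the ranges did not overlap, and the log2 difference of 0.44 passed (edgeR adjusted p = 0.0429). That difference did not pass with the 2 ages fitted alone (edgeR adjusted p = 0.171), the replicate number as a block, no filter on low counts or the leukocyte covariate. With a single mouse left out, it passed only without 10-week replicate 3. Ccnd1 shares part of its locus with Oraov1 on the opposite strand, which held 9376 counts over the 15 samples against 58544 for Ccnd1. Likewise Bysl (8709 counts) overlaps Ccnd3 (26788 counts), and the sources used here do not say whether reads were counted by strand.

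As a share of the summed TPM of the 3 D cyclins within each mouse, a measure that scaling between samples does not move, Ccnd2 made up 85.2%, 85.7% and 83.7% at 4 weeks and 85.3%, 83.0% and 82.3% at 6 weeks. It made up 84.9%, 80.9% and 79.5% at 8 weeks, 65.5%, 70.7% and 77.2% at 10 weeks and 71.3%, 77.8% and 68.7% at 12 weeks. All mice of 10 and 12 weeks were below all mice of 4 and 6 weeks. In CPM, Ccnd2 and Ccnd3 had already separated these ages in full, so the share is another view of those values and not a separate result. The mean went from 84.2% ± 1.42 (SD, n = 6) at 4 and 6 weeks to 71.9% ± 4.82 (SD, n = 6) at 10 and 12 weeks, a difference of -12.3 percentage points (two-sided exact permutation test, p = 0.00217, the smallest this design allows). Over the same ages the share of Ccnd1 went from 12.5% to 19.9% and that of Ccnd3 from 3.31% to 8.28%. With 12 against 4 weeks alone the difference in the Ccnd2 share was -12.3 percentage points, and 3 against 3 mice cannot give an exact p below 0.1.

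**Figure D2:**
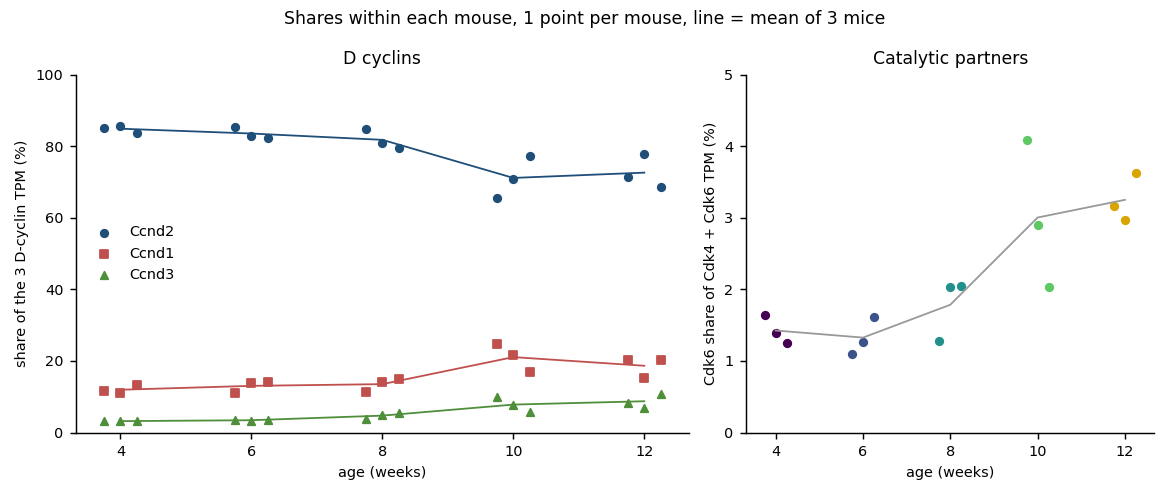
Left, share (%) of each D cyclin in the summed TPM of the 3, and right, share (%) of Cdk6 in the summed TPM of Cdk4 and Cdk6, for each of 15 mice by age in weeks, with lines through the means of 3 mice. The Ccnd2 share lies between 82.3% and 85.7% at 4 and 6 weeks and between 65.5% and 77.8% at 10 and 12 weeks.

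Of the catalytic partners, Cdk4 (chr10:127063534-127067920, plus strand) was the abundant one, at 124, 118 and 129 CPM at 4 weeks and 111, 100 and 113 CPM at 12 weeks. The 2 ages did not overlap, but the gap between their nearest mice was small. Cdk4 fell by 0.20 on the log2 scale (SE 0.06, edgeR adjusted p = 0.017), or 1.14-fold, when scaled by TMM, and its sign turned to 0.05 with library totals. The call was also lost with DESeq2 (log2 difference -0.14, adjusted p = 0.0765) and with its size factors in edgeR (adjusted p = 0.0799), with the edgeR exact test (adjusted p = 0.0525), the 2 ages alone (edgeR adjusted p = 0.129) and the leukocyte covariate (edgeR adjusted p = 0.923). It was lost without the 12-week replicate 2 (-0.14, edgeR adjusted p = 0.0713) and without the 4-week replicate 3 (-0.16, edgeR adjusted p = 0.0717). Tspan31, on the opposite strand, overlaps the end of Cdk4 and held 24927 counts against 51517 for Cdk4. In none of the 4 consecutive 2-week steps did Cdk4 pass the test, with edgeR unadjusted p from 0.109 at 8 against 6 weeks to 0.795 at 6 against 4 weeks.

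Cdk6 (chr5:3341485-3531008, plus strand), the partner that is prominent in blood cells, was at 7.52, 6.03 and 5.93 CPM at 4 weeks and at 4.99, 5.89 and 7.45 CPM at 6 weeks. It was at 5.84, 8.38 and 8.64 CPM at 8 weeks, 16.8, 12.6 and 8.71 CPM at 10 weeks and 13.2, 11.1 and 15.5 CPM at 12 weeks. Each mouse of 10 and 12 weeks exceeded each of the younger mice. Cdk6 rose by 1.03 on the log2 scale between 4 and 12 weeks (SE 0.24, edgeR adjusted p = 0.00358), or 2.04-fold. At 10 against 8 weeks its log2 difference was 0.73 (edgeR adjusted p = 0.0517). It passed there with DESeq2 (adjusted p = 0.0159), with its size factors in edgeR (adjusted p = 0.0486) and with the edgeR exact test (adjusted p = 0.0366). It also passed without 10-week replicate 3 (edgeR adjusted p = 0.00927), and in no other fit. Its share in the summed TPM of Cdk4 and Cdk6 was 1.38% ± 0.218 (SD, n = 6) at 4 and 6 weeks and 3.13% ± 0.698 (SD, n = 6) at 10 and 12 weeks (two-sided exact permutation test, p = 0.00217, the smallest this design allows). Cdk6 in CPM had already separated these ages in full, so this share is not a separate result. The highest Cdk6 share in any mouse was 4.08%, so Cdk4 was the source of nearly all transcripts of the pair per length at every age.

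Among mice of the same age, Cdk6 was higher where leukocyte markers were higher. After subtracting the mean of each age, the correlation of Cdk6 with the mean of the 22 leukocyte markers over the 15 mice was r = 0.801 and rho = 0.886 (exact permutation within ages, p = 0.000129 for both, the smallest the 7776 arrangements can give). Without the 2 mice farthest from the median (8-week replicate 1 and 4-week replicate 1) r was 0.764. For Ccnd3 the values were r = 0.589 (exact permutation p = 0.0179) and rho = 0.711 (exact permutation p = 0.00399), and r was 0.472 without those 2 mice. The same relation was computed for all 10 genes, and these p-values are not adjusted for that number. It was not computed for the other genes tested, so no background over all genes stands beside these values. In the other 8, r lay between -0.437 for Cdkn1b and 0.532 for Ccnd1, with exact permutation p from 0.0831 upwards. With the leukocyte mean as a covariate, the log2 difference between 4 and 12 weeks was -0.18 for Cdk6 and 0.45 for Ccnd3 (edgeR adjusted p = 0.905 and 0.684). Other cell types could vary along with the leukocyte markers within an age. In the 8-week mice the leukocyte mean was 2.01, 4.23 and 4.88 log2 CPM. The mesenchymal mean was 5.305, 6.065 and 6.125 and the endocrine mean 9.83, 9.64 and 9.55 log2 CPM. At 6 weeks neither list ran in such an order. The relation of the members to these lists was not tested.

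**Figure D3:**
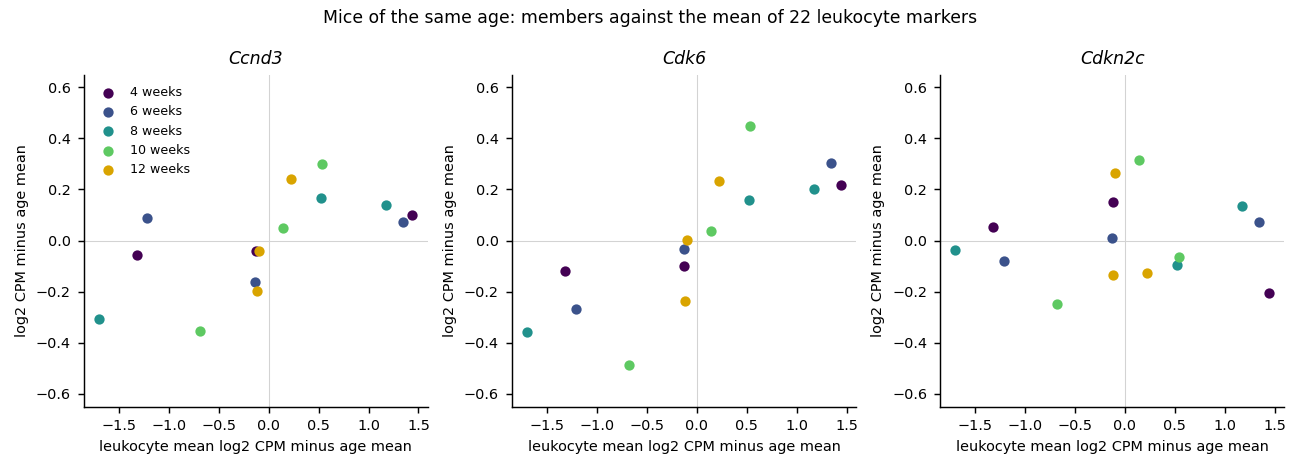
Log2 CPM of Ccnd3, Cdk6 and Cdkn2c minus the mean of the age (vertical axis) against the mean log2 CPM of 22 leukocyte markers minus the mean of the age (horizontal axis), 1 point per mouse, coloured by age. The points of Cdk6 (r = 0.801) and Ccnd3 (r = 0.589) run upwards and those of Cdkn2c (r = 0.0543) do not.

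Of the CIP/KIP inhibitors, Cdkn1b (p27, chr6:134920401-134925513, plus strand) had the highest level. Its values were 149.5, 155.5 and 149.4 CPM at 4 weeks and 123, 134 and 133 CPM at 12 weeks. The mice of the 2 ages did not overlap. Cdkn1b fell by 0.22 on the log2 scale when scaled by TMM (SE 0.06, edgeR adjusted p = 0.00995), or 1.17-fold, and its sign turned to 0.02 with library totals. None of the 2-week steps passed, and the lowest unadjusted p was 0.035 at 10 against 8 weeks (log2 difference -0.15, edgeR adjusted p = 0.106).

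Cdkn1a (p21, chr17:29090979-29100722, plus strand), a classical target of p53, ranged from 20.4 to 41.8 CPM over the 15 mice and the mice of 4 weeks lay within the range of those of 12 weeks. Its log2 difference between 4 and 12 weeks was 0.11 (SE 0.19, edgeR adjusted p = 0.64). At 10 weeks the values were 41.8, 38.7 and 27.1 CPM against 20.4, 27.3 and 28.2 CPM at 8 weeks. These overlapped through 1 mouse, 10-week replicate 3, and the log2 difference of 0.50 had an edgeR adjusted p of 0.0751. Without that mouse it was 0.67 (edgeR adjusted p = 0.0154), and with any other mouse of these ages left out it was 0.37 to 0.59 and did not pass. Cdkn1c (p57, chr7:143458339-143461050, minus strand), an imprinted inhibitor, lay between 3.18 and 4.85 CPM in all mice but 12-week replicate 2, at 7.12 CPM. Its difference between 4 and 12 weeks was 0.25 (SE 0.22, edgeR adjusted p = 0.358) and its sign turned to -0.06 without that mouse.

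Cdkn2c (p18, chr4:109660876-109667189, minus strand), of the INK4 family, had its highest values at the youngest age. At 4 weeks it was at 23.1, 29.6 and 27.7 CPM. At 6 weeks it was at 15.02, 15.97 and 16.7 CPM, and at 8 weeks at 12.9, 12.4 and 14.5 CPM. At 10 weeks the values were 14.2, 18.5 and 12.5 CPM and at 12 weeks 19.6, 14.8 and 14.9 CPM. On this scale the 3 mice of 4 weeks lay above all 12 older mice. In TPM 12-week replicate 1, at 17.5, exceeded 4-week replicate 1, at 17.2. Cdkn2c fell by 0.71 on the log2 scale between 4 and 12 weeks (SE 0.15, edgeR adjusted p = 0.00229), or 1.63-fold, the largest decrease among the 10 genes in this fit. At 6 weeks the log2 difference from 4 weeks was already of that size, at -0.75 (unadjusted p = 0.000296, edgeR adjusted p = 0.0907).

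At 6 against 4 weeks no member passed, with 1 at an unadjusted p under 0.05 (Cdkn2c), and in the same comparison 0.0906% of all genes passed with adjustment and 8.67% without. Cdkn2c passed there in 4 other fits: DESeq2 (log2 difference -0.75, adjusted p = 0.002), the edgeR exact test (adjusted p = 0.00505), the 2 ages alone (edgeR adjusted p = 0.0278) and the leukocyte covariate (edgeR adjusted p = 0.0435). Those fits called 243, 176, 141 and 145 of all genes, against 15. Genes of mitosis and of the E2F programme, which mark cycling cells, also had lower values at 6 weeks. All 18 mitosis genes had lower values at 6 than at 4 weeks, with a median log2 difference of -1.49 against 0.01 over all genes, and 1 of them passed: Cenpf, a kinetochore protein, fell by 1.68 (edgeR adjusted p = 0.0423). Kif11, the spindle motor, differed by -1.67 (edgeR adjusted p = 0.171) and Plk1, a mitotic kinase, by -1.65 (edgeR adjusted p = 0.157). All 20 E2F target genes were lower as well, none past the test, with a median of -0.77. Among them Orc1 differed by -1.56, Cdc6 by -1.49 and Mcm10 by -1.31, all 3 factors of replication origins (edgeR adjusted p = 0.181, 0.226 and 0.289). Orc1 was low, at a mean of 1.07 CPM at 4 weeks and 0.369 CPM at 6 weeks. The mean of the mitosis genes was 3.71, 2.23, 2.28, 3.42 and 3.46 log2 CPM at 4, 6, 8, 10 and 12 weeks. Cdkn2c was at a mean of 26.8, 15.9, 13.3, 15.1 and 16.4 CPM at the same ages, lowest at 8 weeks. From 8 to 10 weeks it differed by 0.19 on the log2 scale (edgeR adjusted p = 0.378), and the mitosis genes by a median of 1.15.

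**Figure D4:**
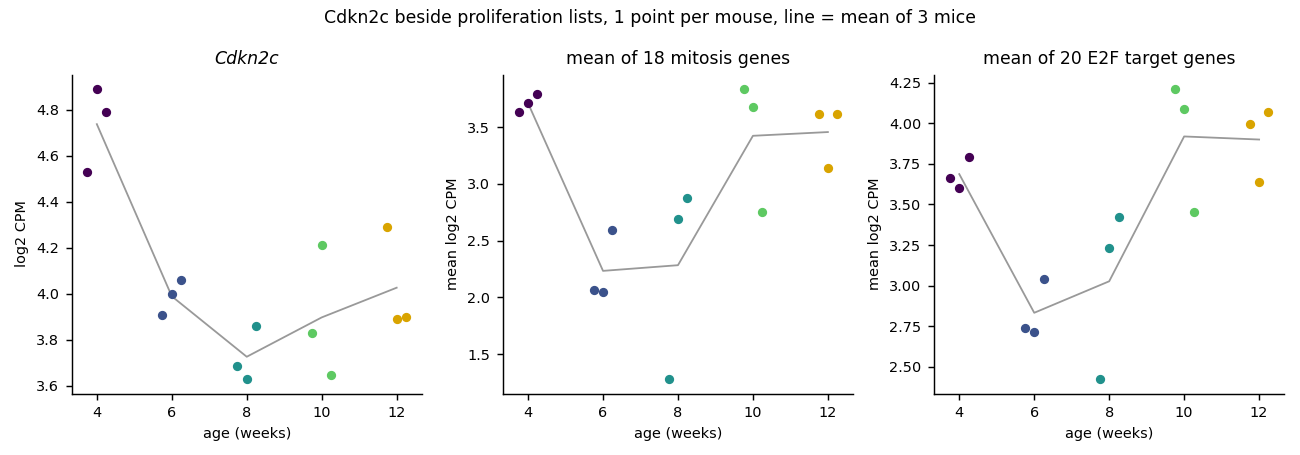
Log2 CPM of Cdkn2c (left), mean log2 CPM of 18 mitosis genes (middle) and mean log2 CPM of 20 E2F target genes (right) in each of the 15 mice by age in weeks, with lines through the means of 3 mice and axes that do not start at 0. The mean of the mitosis genes is 3.71, 2.23, 2.28, 3.42 and 3.46 log2 CPM at 4, 6, 8, 10 and 12 weeks. The mean of Cdkn2c is 26.8, 15.9, 13.3, 15.1 and 16.4 CPM at these ages.

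Cdkn2a (chr4:89274471-89294653, minus strand), whose row holds both p16Ink4a and p19Arf, was near the floor, with 6 to 41 counts per sample. It was at 0.561, 0.641 and 0.724 CPM at 4 weeks, at 0.555, 0.579 and 0.276 CPM at 6 weeks and at 0.219, 0.321 and 0.429 CPM at 8 weeks. It was at 0.977, 0.854 and 0.798 CPM at 10 weeks and at 1.33, 0.635 and 1.13 CPM at 12 weeks. All mice of 10 weeks exceeded all mice of 8 weeks, and 12-week replicate 2 lay within the 4-week range. Cdkn2a rose by 1.43 on the log2 scale at 10 against 8 weeks (edgeR adjusted p = 0.0301), whereas its difference of 0.68 between 4 and 12 weeks did not pass (SE 0.35, edgeR adjusted p = 0.113). Without 12-week replicate 2 the latter was 0.93 (edgeR adjusted p = 0.0428), without 12-week replicate 1 it was 0.46 (edgeR adjusted p = 0.336), and without any other mouse of these ages it was 0.59 to 0.78 and did not pass. The rise at 10 against 8 weeks did not pass with the 2 ages fitted alone (edgeR adjusted p = 0.171), the replicate number as a block or the leukocyte covariate. With a single mouse left out, it passed only without 10-week replicate 3 and without 8-week replicate 3. Among mice of the same age Cdkn2a showed r = -0.0534 with the leukocyte markers.

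The step from 8 to 10 weeks was the 2-week interval with calls among the members. Ccnd1, Ccnd3 and Cdkn2a rose and Ccnd2 fell, while 8.40% of all genes rose and 8.37% fell. In the same interval 6 of 22 leukocyte markers rose (median of the 22, 1.72) and 7 of 12 endocrine genes fell (median of the 12, -0.47). These 4 calls were sensitive to single mice: none was left without 10-week replicate 1, 10-week replicate 2, 8-week replicate 1 or 8-week replicate 2, there were 2 without 8-week replicate 3, and there were 6 without 10-week replicate 3, the mouse with the fewest leukocyte transcripts of its age. Over all genes the calls went the same way, from 2776 to 0 without each of the first 4 mice and to 5612 without 10-week replicate 3, but to 3408 without 8-week replicate 3. No member passed with the 2 ages fitted alone or with the leukocyte covariate, and 6 passed with DESeq2 and 5 with the edgeR exact test. The numbers over all genes in these fits were 0, 0, 4139 and 2970. E2F targets and mitosis genes rose in this interval, 11 of 20 (median 0.86) and 5 of 18 (median 1.15).

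At 8 against 6 weeks and at 12 against 10 weeks none of the 10 genes passed in edgeR, none had an unadjusted p under 0.05, and none passed with DESeq2 or the edgeR exact test. Over all genes 0% passed in each of these steps with adjustment, and 18.0% and 7.52% respectively had an unadjusted p under 0.05. With DESeq2 and the edgeR exact test 547 and 306 genes passed at 8 against 6 weeks and 12 and 8 at 12 against 10 weeks. The member with the lowest p between 6 and 8 weeks was Ccnd3, with a log2 difference of 0.33 (edgeR adjusted p = 0.306). Between 10 and 12 weeks it was Ccnd1, with -0.23 (edgeR adjusted p = 0.701).

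Since endocrine RNA made up less of the older samples, the 12 against 4 week comparison was also scaled to the 12 endocrine genes. On that scale 9 of the 10 genes were higher at 12 weeks (edgeR, adjusted p under 0.05), as were 80.7% of all genes tested, and the median of all genes was 0.82. Ccnd3 and Cdk6 rose by 1.96 and 1.91 per endocrine RNA, Cdkn2a by 1.56, Ccnd1 by 1.15, Cdkn1c by 1.10 and Cdkn1a by 0.99, all 6 above that median. Ccnd2, lower on the TMM scale, rose by 0.27 per endocrine RNA (SE 0.09, edgeR adjusted p = 0.0103), below the median of all genes, and Cdk4 and Cdkn1b rose by 0.68 and 0.65. Cdkn2c did not pass, at 0.16 (SE 0.21, edgeR adjusted p = 0.476), and had the lowest value of the 10 on both scales. The change of scale moved the 10 genes and the median by nearly the same amount. Their places relative to the median per endocrine RNA are thus not a separate result.

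**Figure D5:**
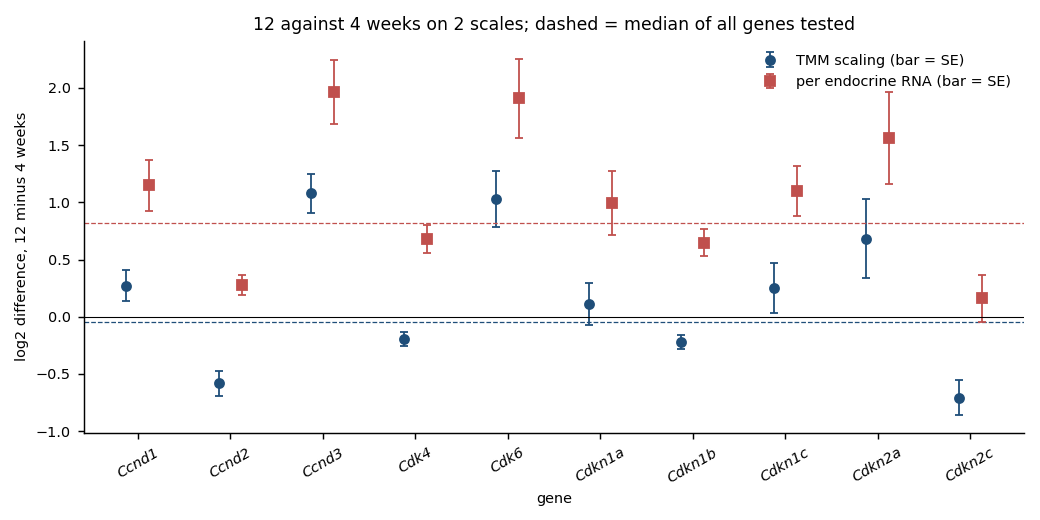
Log2 difference between 12 and 4 weeks (vertical axis) of the 10 genes with its SE as a bar, scaled by TMM (circles) and per endocrine RNA (squares), with dashed lines at the medians of all genes tested (-0.05 and 0.82). Ccnd1, Ccnd3, Cdk6, Cdkn1a, Cdkn1c and Cdkn2a lie above both medians, and Ccnd2, Cdk4, Cdkn1b and Cdkn2c lie below both. The change of scale moves the genes and the median by nearly the same amount, so the squares are not a separate result.

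Further genes of the G1 to S transition went both ways between 4 and 12 weeks: 5 of 23 rose and 7 fell, with a median of -0.08 against -0.05 over all genes. Of all genes tested, 26.3% rose and 27.2% fell. E2f1, an activator E2F, fell by 0.93 (edgeR adjusted p = 0.000594), Ccne2, a cyclin E, fell by 0.88 (edgeR adjusted p = 0.000357), and E2f7, a repressor E2F, fell by 0.84 (edgeR adjusted p = 0.0135). Cdk2, the partner of cyclin E, rose by 0.89 (edgeR adjusted p = 0.00815), E2f2 by 0.71 (edgeR adjusted p = 0.0154) and Rbl1, the pocket protein p107, by 0.62 (edgeR adjusted p = 0.00593). Of the 20 E2F targets 3 rose and 1 fell over the whole span, and of the 18 mitosis genes none rose and 1 fell.

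Among 18 genes known to act on the members, 8 rose and 3 fell between 4 and 12 weeks, with a median of 0.22. Of all genes tested, 26.3% rose and 27.2% fell, with a median of -0.05. Igf2bp2, which binds mRNA, had the largest decrease, from 11.8 ± 2.03 to 3.52 ± 0.162 CPM (SD, n = 3 each), a log2 difference of -1.74 (edgeR adjusted p = 0.000117). Men1, the menin gene whose product maintains Cdkn1b and Cdkn2c expression in endocrine cells, fell by 0.26 (edgeR adjusted p = 0.0128) and Mdm2, the ligase for p53, fell by 0.17 (edgeR adjusted p = 0.0179). Library totals in place of TMM moved the median of all genes up by 0.25. Falls as small as those of Men1 and Mdm2 thus hold for the TMM scale only. Myc, which binds the E-box, went from 4.43 ± 0.222 to 16.2 ± 1.92 CPM (SD, n = 3 each), a log2 difference of 1.87 (edgeR adjusted p = 0.000279). Pdgfra, the receptor that is also 1 of the 8 mesenchymal markers, rose by 3.45 (edgeR adjusted p = 0.00047) and Stat5a, which acts downstream of the prolactin receptor, rose by 0.82 (edgeR adjusted p = 0.000721).

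Of 15 p53 target genes, 4 rose and 5 fell, with a median of 0.00 and Cdkn1a not counted among them. The background for this list and the next was 26.3% of all genes that rose and 27.2% that fell, with a median of -0.05. Plk2 fell by 0.74, Sesn2 by 0.39 and Zmat3 by 0.39 (edgeR adjusted p = 0.00262, 0.00197 and 0.00163). Trp53inp1 rose by 0.60, Tnfrsf10b by 0.88 and Gdf15 by 1.56 (edgeR adjusted p = 0.00606, 0.00571 and 0.0365). Gdf15 was near the floor, at a mean of 0.354 CPM at 4 weeks and 1.06 CPM at 12 weeks. Of 15 genes associated with senescence, Gdf15 again included, 8 rose and 2 fell, with a median of 0.76. Mmp2, a matrix protease, rose by 2.51 (edgeR adjusted p = 0.000291) and Il1a by 1.70 (edgeR adjusted p = 0.0163), while Bambi fell by 0.77 (edgeR adjusted p = 0.00504). Il1a was also near the floor, at a mean of 0.395 CPM at 4 weeks and 1.28 CPM at 12 weeks. Mmp3 had 3, 0 and 0 counts in the 4-week mice and 3.37, 3.18 and 2.89 CPM in the 12-week mice, which was at least 27.0-fold higher than 3 counts per library. Several of these genes are also made by stroma and leukocytes, whose markers rose in the same samples, and their part in these values was not tested.

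The genes whose log2 CPM ran most like each member over the 15 mice, out of 11834 genes with a mean of at least 5 CPM, are given as a description in which the points share the ages and the composition of the samples. Among the D cyclins, Ccnd2 was most like Ssx2ip (r = 0.981) and Slc7a8 (r = 0.976), Ccnd3 most like Acot9 (r = 0.993) and Wdr1 (r = 0.990), and Ccnd1 most like Pdgfb (r = 0.935) and Acp2 (r = 0.933). Cdk4 was most like Rab34 (r = 0.925) and 2210013O21Rik (r = 0.921), and Cdk6 most like Apaf1 (r = 0.989) and Rac1 (r = 0.988). Cdkn2c was most like Anln (r = 0.944) and Hjurp (r = 0.932), the former an actin-binding protein of cell division and the latter a chaperone of centromeric histone. Among the other inhibitors, Cdkn1b was most like Snhg14 (r = 0.971) and Fbf1 (r = 0.955), Cdkn1a most like Ybx1 (r = 0.901) and Dusp4 (r = 0.889), and Cdkn2a most like Map3k11 (r = 0.916) and Gar1 (r = 0.912). Cdkn1c had the weakest matches, Lyve1 (r = 0.800), a marker of lymphatic endothelium, and Ptk7 (r = 0.712).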

How the data were processed

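Polyadenylated RNA from islets of single mice was sequenced as read pairs. The authors trimmed, aligned and counted the reads in CLC Genomics Workbench with default settings, and per the labels the build was mm10. The deposited counts are whole reads per gene with no normalization, and the deposited TPM values, made by the authors from them, are scaled per gene length and then to the same total in every sample. TPM served for levels between genes and for shares. A further 30 per-sample columns (RPKM and CPM) were not used.

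Counts were filtered (filterByExpr), scaled by TMM and fitted with glmQLFit of edgeR 4.0.16 in R 4.3.3, with 1 mean per age over the 15 mice. Contrasts were tested by glmQLFTest and adjusted by Benjamini-Hochberg over all 16554 genes tested. CPM values are TMM-scaled, with a prior count of 2 on the log scale. Scaling per endocrine RNA used the mean log count of 12 endocrine genes as offset. Shares and correlations were tested by exact permutation in SciPy 1.17.1, two-sided. The steps were also run on simulated data. The simulated counts had the same dispersion for every gene, which does not copy the spread between these mice. Mice within an age differed beyond sampling of reads.

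The members and lists were chosen with earlier results of these data known. Lists, from general knowledge, were described by counts. Named genes were all members, from each list up to 3 genes with the largest increase and 3 with the largest decrease among those called at 12 against 4 weeks (the largest decreases at 6 against 4 weeks, whatever the p, for the E2F and mitosis lists), and the 2 genes most like each member. A gene that falls under this rule is not reported here. A leukocyte marker that the table does not hold under the listed name was not used, which left 22. Alternatives were DESeq2 1.42.0, its size factors, library totals, no filter, 2 ages alone, the edgeR exact test, the leukocyte mean as covariate, the replicate number as a block, another prior count, a shorter endocrine list, shares of counts, and each mouse left out.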

Additional observations from a re-analysis of the deposited data

How the results depend on the processing

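Of 394 recomputed values of single genes, 324 kept their direction and their side of the threshold. The leukocyte covariate left 0 members called over the 5 ages, at 10 against 8 weeks and at 12 against 4 weeks (78, 0 and 2 of all genes), and turned Ccnd1 (-0.17), Cdk6 (-0.18) and Cdkn1a (-0.072) at 12 against 4 weeks and Cdk4 (0.015) at 10 against 8 weeks. At 6 against 4 weeks 1 member was called with the covariate, the 2 ages alone, DESeq2 and the edgeR exact test. At 10 against 8 weeks the count went from 4 to 0 with the 2 ages alone, to 0 with the replicate block and to 2 with no filter (over all genes from 2776 to 0, 0 and 1872), and to between 0 and 6 with 1 mouse left out. Same-numbered mice correlated between -0.504 and 0.509, in 0 of 5 comparisons all over 0.1, so the numbers do not pair the mice, and besides the count at 10 against 8 weeks the replicate block moved that over the 5 ages, from 8 to 6, and no other. Library totals turned Cdk4 to 0.052 and Cdkn1b to 0.024 at 12 against 4 weeks and Cdk4 to 0.073 at 10 against 8 weeks, and moved the median of all genes by 0.25. Leaving out 1 mouse, Cdkn1c ran from -0.061 (without 12-week replicate 2) to 0.41 at 12 against 4 weeks. At 10 against 8 weeks it ran from -0.085 (without 10-week replicate 2; -0.029 without 8-week replicate 2) to 0.22, and Cdk4 from -0.070 to 0.0087 (without 8-week replicate 1). With 3 against 3 mice the differences in share were -12.3 (Ccnd2) and 1.82 (Cdk6) percentage points, p = 0.1 by exact permutation. Leaving out 1 mouse gave 6 to 9 members over the 5 ages and 5 to 6 at 12 against 4 weeks. Depth limits Cdkn2a, with 6 to 41 counts per sample. The causes of these shifts were not tested.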
